A study of Mus musculus with 10 samples.

Results

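The colony-stimulating factors are secreted proteins that make blood-forming cells survive, divide and mature, and their receptors are carried mainly by myeloid cells. The 7 genes described here are the 3 ligands Csf1, Csf2 and Csf3 and the 4 receptor genes Csf1r, Csf2ra, Csf2rb and Csf3r. They were chosen by symbol, as the probe sets annotated to exactly 1 of these symbols, and each gene is represented by its probe set with the highest mean over the 10 arrays. All 7 were measured, among 12394 genes represented in this way. The unit throughout is the log2 value of the array, so that a difference of 1 stands for a doubling.

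The RNA came from cell populations sorted from mouse mammary gland, strain FVB/N, and 10 single-colour Affymetrix arrays were used, each with 100 ng of total RNA. COF are fibroblasts from the glands of wild-type control mice (3 arrays). CAF (cancer-associated fibroblasts, 3 arrays), TEC (2 arrays) and CSC (cancer stem cells, 2 arrays) came from mammary tumours of mice with the genotype WAPCre-DNbcatn;HGF. Wap, whose promoter the label names for Cre, is a milk protein gene of secretory mammary epithelium, so tumour and control samples differ in genotype as well as in disease. The TEC samples carry the name TEFs in 1 label field. Age, gating and pooling of animals are not given in the sources used here, and the labels do not say that arrays of a group came from separate mice, so p-values measure only the spread between these samples, which may be technical.

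Csf1 (M-CSF) signals through the tyrosine kinase receptor Csf1r and maintains monocytes and macrophages. Csf2 (GM-CSF) signals through a specific chain, Csf2ra, paired with the beta chain Csf2rb that is shared with the receptors of interleukins, and acts on granulocytes, macrophages and dendritic cells. Csf3 (G-CSF) signals through Csf3r and drives the production and release of neutrophils. In mammary tumours this family is known as a route by which stroma and tumour cells recruit and sustain myeloid cells.

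Upstream sequence was read for the members that had an entry in the RefSeq promoter table (build GRCm38.p6), which were 4 of 7. All 4 are shown, as the upstream sequence of these ligands and receptors. Each window holds 250 bases before and 50 bases after the annotated gene start, 5′ to 3′ on the strand of the gene. Capitals mark matches to the NF-kappaB consensus, a binding sequence of inflammatory transcription factors, or to GAGGAAG, the core bound by PU.1, a myeloid factor encoded by Spi1.
Csf1, chr3:107760420-107760719, minus strand: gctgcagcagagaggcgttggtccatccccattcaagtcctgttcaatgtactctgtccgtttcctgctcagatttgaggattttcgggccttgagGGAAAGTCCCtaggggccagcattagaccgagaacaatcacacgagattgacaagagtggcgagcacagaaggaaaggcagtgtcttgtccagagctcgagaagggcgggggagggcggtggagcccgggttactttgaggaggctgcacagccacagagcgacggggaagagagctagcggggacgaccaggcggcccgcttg
Csf2, chr11:54249850-54250149, minus strand: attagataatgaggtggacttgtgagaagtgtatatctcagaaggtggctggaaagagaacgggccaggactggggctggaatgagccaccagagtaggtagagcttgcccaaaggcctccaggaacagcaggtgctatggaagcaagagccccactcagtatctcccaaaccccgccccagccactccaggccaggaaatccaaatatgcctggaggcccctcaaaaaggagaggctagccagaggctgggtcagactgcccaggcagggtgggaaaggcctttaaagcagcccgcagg
Csf2ra, chr19:61228369-61228668, minus strand: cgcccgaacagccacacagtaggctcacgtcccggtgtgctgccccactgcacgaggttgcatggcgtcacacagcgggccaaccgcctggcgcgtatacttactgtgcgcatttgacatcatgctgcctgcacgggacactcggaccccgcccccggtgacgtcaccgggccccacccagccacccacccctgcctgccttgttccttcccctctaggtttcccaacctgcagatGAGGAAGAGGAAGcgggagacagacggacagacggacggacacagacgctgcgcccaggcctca
Csf3r, chr4:126024409-126024708, plus strand: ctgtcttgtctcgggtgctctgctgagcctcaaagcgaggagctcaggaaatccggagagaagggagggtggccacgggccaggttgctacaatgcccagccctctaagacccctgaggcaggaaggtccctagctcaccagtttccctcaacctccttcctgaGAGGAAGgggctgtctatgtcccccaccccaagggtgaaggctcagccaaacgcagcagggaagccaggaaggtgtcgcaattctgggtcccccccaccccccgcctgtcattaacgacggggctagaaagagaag
Both strands were searched. The Csf1 window held 1 match to the NF-kappaB consensus, on the opposite strand, and the other windows held none. GAGGAAG matched 2 times in Csf2ra, where the matches share a base, and 1 time in Csf3r. Of 32851 windows of this length in the table, 4.51% held the NF-kappaB consensus and 13.6% held GAGGAAG. These matches are a description of the letters and show no binding. Spi1 itself averaged 9.87 in TEC, 7.64 in CSC, 6.14 in CAF and 6.07 in COF.

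The labelled populations were compared with their defining markers before the members were read. The median of 10 fibroblast markers lay between 12.74 and 13.06 on the 6 fibroblast arrays and at 7.97 and 8.19 in CSC, whereas in TEC it was 8.74 on replicate 1 and 11.42 on replicate 2. For 12 epithelial markers the CSC medians were 12.06 and 12.33, the TEC medians 9.42 and 10.17, and no fibroblast array exceeded 7.28. For 12 pan-leukocyte markers the TEC medians were 12.61 and 13.01 and the CSC medians 10.03 and 10.68, while fibroblast arrays ranged from 5.22 to 7.64. Leukocyte transcripts were thus high in both TEC and CSC, and on both TEC arrays the leukocyte median exceeded the epithelial median. CAF lay lower but was not free of them. Of the 12 markers, 5, 5 and 8 lay above the array median on CAF replicates 1, 2 and 3. COF arrays had 1 or 2 such markers. RNA integrity was read from Actb as the signal of its 3′ probe set minus that of its 5′ probe set, which was 0.32 and 0.46 in TEC against 0.59 to 0.76 on the other arrays. For Gapdh this difference was larger in both tumour-cell populations, with TEC at 0.26 and 0.24, CSC at 0.29 and 0.30, and fibroblast arrays from 0.05 to 0.15. The part of RNA integrity in the results was not tested. In sorted bulk RNA, fewer cells of a type and less RNA per cell cannot be told apart.

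**Figure D1:**
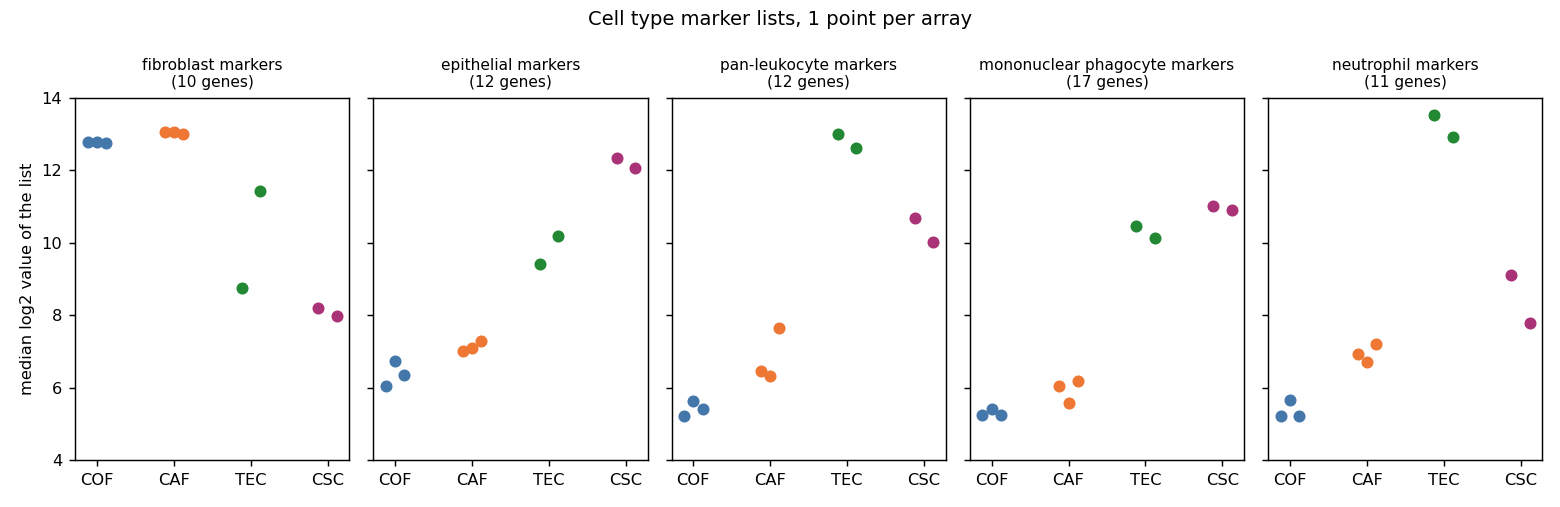
Median log2 value of 5 marker lists (vertical axis) on each array, by population (horizontal axis), 1 point per array. Fibroblast markers are high in COF and CAF, and epithelial markers are highest in CSC. Pan-leukocyte and neutrophil markers are highest in TEC, where TEC replicate 2 also has a fibroblast median of 11.42. Mononuclear phagocyte markers are highest in CSC, with medians of 10.90 and 11.02 against 10.14 and 10.47 in TEC.

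The ligands had their highest means in fibroblasts and the receptors in TEC. Csf1 had its highest mean in COF, Csf2 and Csf3 had theirs in CAF, and each of the 4 receptor genes had its highest mean in TEC. CAF had less Csf1 and more Csf3 than COF, by a factor of 1.97 and 15.9. CSC had less Csf2ra, Csf2rb and Csf3r than TEC, by a factor of 4.82, 6.74 and 17.8. The 6 comparisons among the 4 populations share arrays and are therefore not independent of each other.

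**Figure D2:**
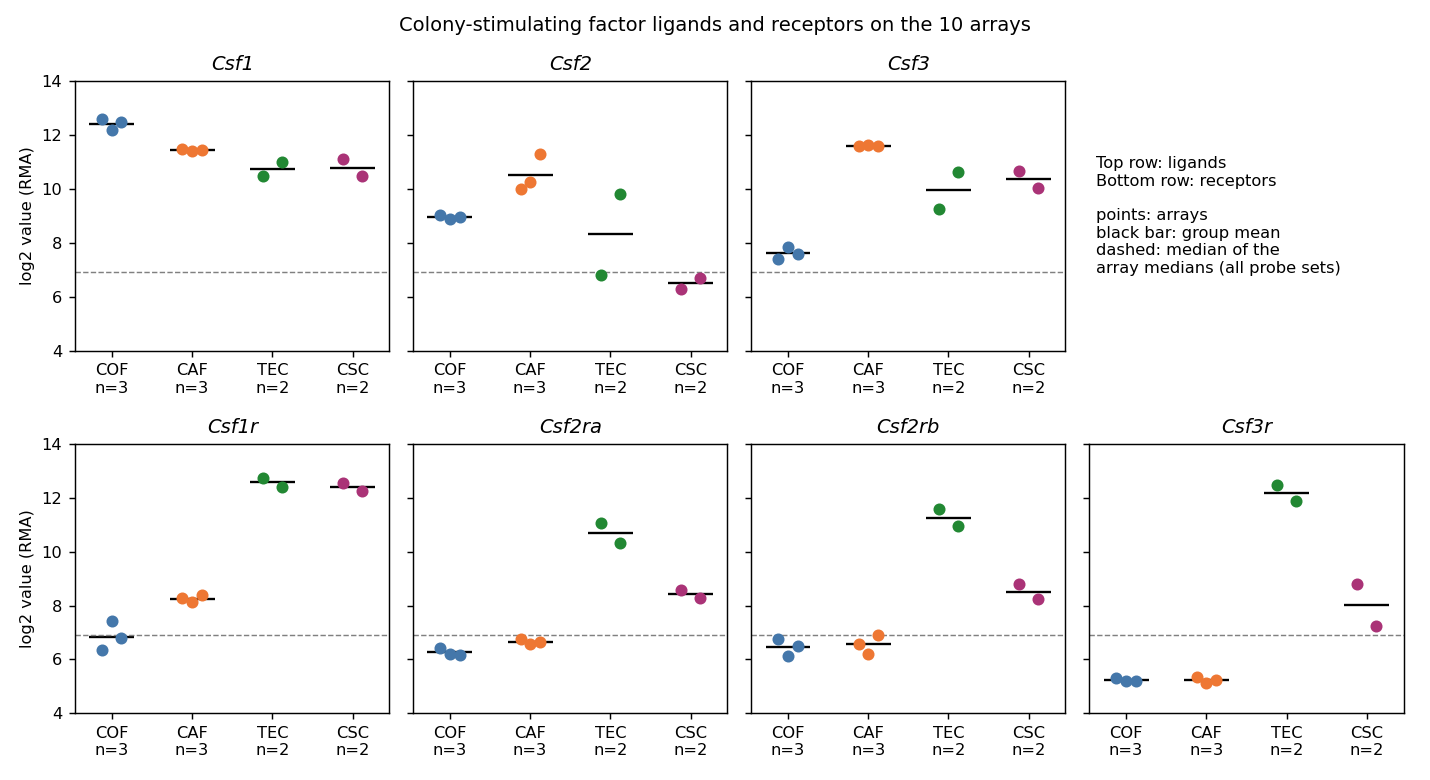
Log2 values of the 7 genes (vertical axis) in COF, CAF, TEC and CSC (horizontal axis). Each point is 1 array, the black bar is the mean of the group and the dashed line is the median of the array medians. The ligands Csf1, Csf2 and Csf3 (top) are highest in a fibroblast population, and the receptors (bottom) are highest in TEC, with Csf1r almost as high in CSC.

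Csf1, the macrophage growth factor, was highest in COF and high in all 4 populations. It read 12.60, 12.19 and 12.48 on COF replicates 1, 2 and 3, and 11.48, 11.41 and 11.45 on CAF replicates 1, 2 and 3. On TEC replicates 1 and 2 it read 10.48 and 10.99, and on CSC replicates 1 and 2 it read 11.09 and 10.49. COF, CAF and the pair of TEC and CSC thus formed 3 levels that did not overlap, and TEC and CSC overlapped. Even on the lowest array Csf1 stood above at least 90.6% of all probe sets. Relative to COF, Csf1 fell by 0.98 on the log2 scale in CAF ± 0.19 (SE, limma, n = 3 and 3, adjusted p = 0.00359). COF exceeded CSC by 1.64 ± 0.21 and TEC by 1.69 ± 0.21 (adjusted p = 1.00e-04 and 8.55e-05). CAF exceeded CSC by 0.66 ± 0.21 (adjusted p = 0.0191) and TEC by 0.72 ± 0.21 (adjusted p = 0.0127). These last 2 differences rest on single arrays: without CSC replicate 2 the first was 0.36 (adjusted p = 0.188), without CAF replicate 1 it was 0.64 (adjusted p = 0.050005), and without TEC replicate 1 the second was 0.46 (adjusted p = 0.110). TEC and CSC did not pass, with a difference of 0.06 and a 95% confidence interval from -0.46 to 0.57 for CSC minus TEC.

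Csf1 has 4 probe sets on this array, and all 4 had a higher mean in COF than in CAF. The difference CAF minus COF was -0.98 in the probe set used (1460220_a_at), -1.40 in 1448914_a_at, -0.50 in 1425154_a_at and -0.30 in 1425155_x_at. In a fit over all probe sets the first 3 passed (limma, adjusted p = 0.00364, 6.87e-04 and 0.0336) and the last did not (adjusted p = 0.293). The direction was thus shared by all 4, and the size ranged from 0.30 to 1.40. For CSC minus TEC 1 of the 4, 1425155_x_at, passed as higher in CSC, at 0.67 ± 0.24 (adjusted p = 0.0436). CAF replicates 1 and 2 were the closest pair within the fibroblasts, with an SD of gene differences of 0.14, followed by COF replicates 1 and 3 with 0.18. With each of these pairs averaged into 1 array, the Csf1 difference between CAF and COF was -0.92 (adjusted p = 0.0571).

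Csf2, the granulocyte and macrophage growth factor, separated the fibroblasts from CSC and had the widest spread within a group, an SD of 2.14 in TEC. COF replicates 1, 2 and 3 read 9.02, 8.88 and 8.97, and CAF replicates 1, 2 and 3 read 10.01, 10.27 and 11.31. CSC replicates 1 and 2 read 6.31 and 6.68, below the median of their arrays. Neither value is shown to lie above background, so a fold against CSC may be only a bound. The TEC arrays were far apart, at 6.80 on replicate 1 and 9.82 on replicate 2. TEC replicate 2 is also the array with the higher fibroblast marker median, 11.42 against 8.74, and the part of these transcripts in its Csf2 value was not tested. All CAF arrays lay above all COF arrays, and all COF arrays above both CSC arrays. CAF exceeded CSC by 4.03 ± 0.72 (SE, limma, adjusted p = 9.66e-04), which is 16.4-fold, and COF exceeded CSC by 2.46 ± 0.72 (adjusted p = 0.0131), or 2.27 without CSC replicate 1 (adjusted p = 0.0711). The difference CAF minus COF was 1.58 ± 0.65 and did not pass (adjusted p = 0.0925, 95% confidence interval 0.11 to 3.04). When only the CAF and COF arrays were fitted, without the spread of TEC, it passed (adjusted p = 0.00445).

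The comparisons of Csf2 with TEC rest on single arrays. CAF exceeded TEC by 2.22 ± 0.72 (limma, adjusted p = 0.0221). This was 0.71 without TEC replicate 1 (adjusted p = 0.170), 3.73 without TEC replicate 2 (adjusted p = 6.49e-05) and 1.83 without CAF replicate 3 (adjusted p = 0.0699). On the CAF and TEC arrays alone its adjusted p was 0.0764. CSC minus TEC was -1.82 ± 0.79 and did not pass (adjusted p = 0.0893), and it was -3.33 without TEC replicate 1 (adjusted p = 4.42e-04) and -0.30 without TEC replicate 2 (adjusted p = 0.602). COF minus TEC was 0.64 ± 0.72 (adjusted p = 0.453) and it was 2.16 without TEC replicate 2 (adjusted p = 0.00170) but -0.87 without TEC replicate 1 (adjusted p = 0.0952). The place of TEC in the order of Csf2 levels was therefore not settled by these 2 arrays.

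Csf3, the neutrophil growth factor, was the ligand that differed most between the fibroblast populations. COF replicates 1, 2 and 3 read 7.41, 7.84 and 7.60, above 57.5% to 63.6% of the probe sets of their arrays. CAF replicates 1, 2 and 3 read 11.59, 11.63 and 11.58, above at least 95.5% of them. TEC replicates 1 and 2 read 9.27 and 10.63, and CSC replicates 1 and 2 read 10.68 and 10.02. Every CAF array lay above every other array, every COF array lay below every other, and TEC and CSC overlapped between them. CAF exceeded COF by 3.99 ± 0.31 (SE, limma, adjusted p = 5.11e-05). CSC and TEC also exceeded COF, by a difference COF minus CSC of -2.73 ± 0.35 and COF minus TEC of -2.33 ± 0.35 (adjusted p = 9.99e-05 and 2.86e-04). CAF exceeded CSC by 1.25 ± 0.35 (adjusted p = 0.0104) and TEC by 1.65 ± 0.35 (adjusted p = 0.00234). Without CSC replicate 2 the difference from CSC was 0.93 (adjusted p = 0.0972), and without TEC replicate 1 that from TEC was 0.97 (adjusted p = 0.00781). CSC minus TEC was 0.40 ± 0.38 (adjusted p = 0.424), and it was 1.08 without TEC replicate 2 (adjusted p = 0.00773) but -0.28 without TEC replicate 1 (adjusted p = 0.417). Of 12 epithelial markers, 8 were higher in CAF than in COF, 1 was lower and 3 did not pass, with a median of 1.15 against 0.02 for all genes, and 4 were higher without COF replicate 1, CAF replicate 2 or CAF replicate 3, and 5 without COF replicate 3. Of 8 mast cell markers 4 were higher in CAF and 0 lower, with a median of 0.54. Beside the counts of both lists, 18.1% of all genes were higher in CAF and 16.7% lower. The part of such transcripts in the differences of Csf3 and Csf1r between CAF and COF was not tested.

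The ligand orders thus differed from each other. Csf1 ran from COF through CAF to TEC and CSC, whereas Csf3 ran from CAF through CSC and TEC to COF. Csf2 had its highest mean in CAF, as Csf3 did, but its lowest in CSC, where Csf3 had its second highest.

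Csf1r, the receptor of Csf1 and a defining gene of monocytes and macrophages, was the receptor at nearly the same level in TEC and CSC. TEC replicates 1 and 2 read 12.73 and 12.40, and CSC replicates 1 and 2 read 12.53 and 12.25, each above at least 97.5% of the probe sets of its array. CAF replicates 1, 2 and 3 read 8.29, 8.12 and 8.37, and COF replicates 1, 2 and 3 read 6.34, 7.43 and 6.78. TEC and CSC overlapped, and CAF and COF each lay apart from all others. CSC minus TEC was -0.17 ± 0.30 (limma, adjusted p = 0.669, 95% confidence interval -0.84 to 0.50). CAF lay below CSC and TEC, by a difference of -4.13 ± 0.27 and -4.30 ± 0.27 (adjusted p = 2.02e-06 and 1.95e-06). COF lay 46.7-fold below CSC and 52.6-fold below TEC in the probe set used. COF replicates 1 and 3 read below the median of their arrays, so these folds may be only bounds. Relative to COF, Csf1r rose in CAF by 1.41 ± 0.24 (adjusted p = 0.00208).

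The 3 probe sets of Csf1r gave different sizes for the rise in CAF. The difference CAF minus COF was 1.41 in 1419872_at, the one used, 0.53 ± 0.14 in 1419873_s_at and 0.14 ± 0.16 in 1423593_a_at. In a fit over all probe sets the first 2 passed (limma, adjusted p = 0.00212 and 0.0182) and the third did not (adjusted p = 0.568). Averaged over its probe sets, Csf1r differed by 0.69 (adjusted p = 0.00820). The last 2 probe sets also passed as lower in CSC than in TEC, at -0.50 ± 0.17 and -0.66 ± 0.19 (adjusted p = 0.0402 and 0.0213), where the one used did not. All 3 were lower in CAF than in CSC, by 2.96 to 4.13 in size. Over the 3, COF minus CSC ranged from -5.54 to -3.10 and COF minus TEC from -5.72 to -3.76, with the probe set used at the larger size. In the same comparison of CAF with COF, 8 of 17 mononuclear phagocyte markers rose and none fell, with a list median of 0.37 against 0.02 for all genes. Beside this count and the pan-leukocyte count below, 18.1% of all genes were higher in CAF and 16.7% lower. Lyz2 rose by 3.47 and Cd14 by 3.07, whereas Adgre1 was 5.61 and 5.40, and Cd68 was 6.09 and 6.05, in CAF and COF, and neither passed (adjusted p = 0.172 and 0.907). Pan-leukocyte markers rose in 9 of 12 cases, Ptprc, which encodes CD45, by 1.91 ± 0.49 (adjusted p = 0.0153). Without COF replicate 1 or COF replicate 3 this was 5 of 12, and Ptprc did not pass (adjusted p = 0.0605 and 0.0516). The phagocyte list had a median of 5.58 to 6.17 on CAF arrays and 5.24 to 5.40 on COF arrays, far from the 10.90 and 11.02 of CSC and the 10.14 and 10.47 of TEC. The part of such transcripts in the Csf1r difference was not tested.

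**Figure D3:**
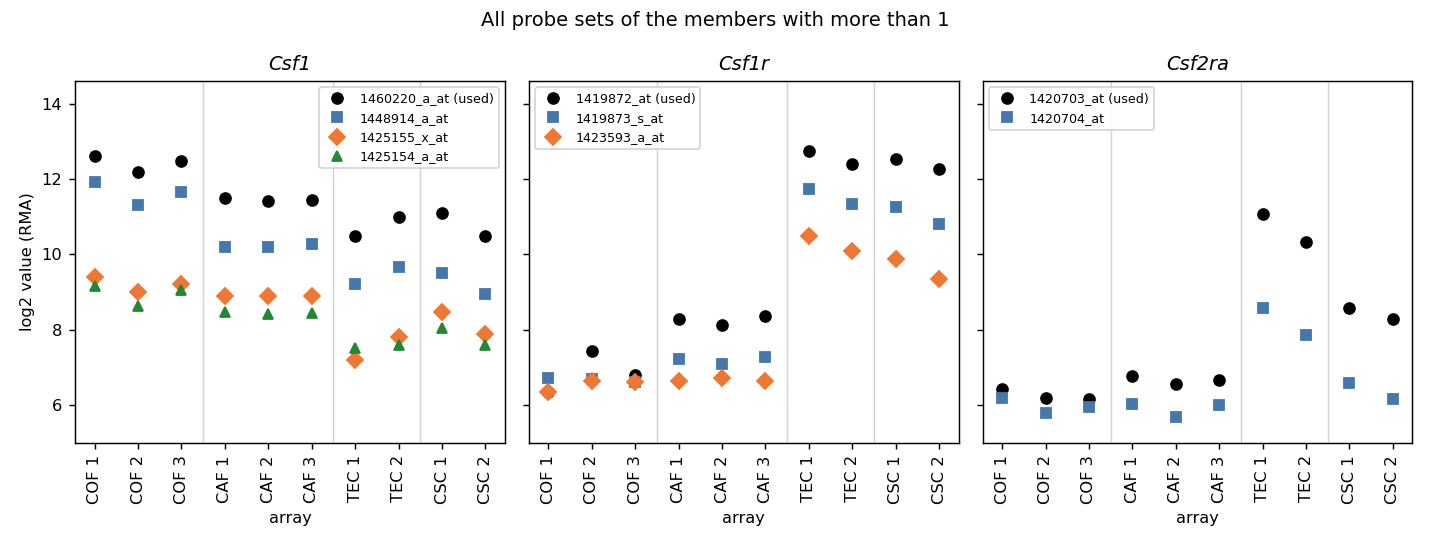
Log2 values (vertical axis) of all probe sets annotated to Csf1, Csf1r or Csf2ra alone, on each of the 10 arrays (horizontal axis), with 1 symbol per probe set. All 4 Csf1 probe sets have a higher mean in COF than in CAF, the 3 Csf1r probe sets differ between CAF and COF by 0.14 to 1.41, and both Csf2ra probe sets are highest in TEC.

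Csf2ra, the chain that gives the Csf2 receptor its specificity, had clearly separate levels in TEC and CSC. TEC replicates 1 and 2 read 11.07 and 10.33, and CSC replicates 1 and 2 read 8.57 and 8.29. CAF replicates 1, 2 and 3 read 6.77, 6.56 and 6.66, and COF replicates 1, 2 and 3 read 6.42, 6.19 and 6.16, all below the median of their arrays. No 2 populations overlapped. CSC fell below TEC by a difference of -2.27 ± 0.22 (SE, limma, adjusted p = 5.92e-05). CAF and COF lay below CSC, by -1.77 ± 0.20 and -2.17 ± 0.20 (adjusted p = 6.08e-05 and 1.48e-05). They lay 16.4-fold and 21.7-fold below TEC in the probe set used. Their values are not shown to lie above background, so these folds may be only bounds. CAF minus COF was 0.40 ± 0.18 and did not pass (adjusted p = 0.121), though it did when only CAF and COF were fitted (adjusted p = 0.0117) and with the replicate number as a block (adjusted p = 0.0483). The second probe set, 1420704_at, gave -0.07 ± 0.20 for CAF minus COF and -1.84 ± 0.25 for CSC minus TEC (adjusted p over all probe sets 0.849 and 3.59e-04). It gave -0.47 ± 0.23 for CAF minus CSC, which did not pass (adjusted p = 0.0943), against -1.77 for the probe set used. COF minus CSC was -0.40 ± 0.23 in it and did not pass (adjusted p = 0.144), against -2.17. For CAF minus TEC and COF minus TEC it gave -2.31 and -2.24 (adjusted p = 2.58e-05 and 2.47e-05), against -4.04 and -4.44. The sizes thus depended on the probe set.

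Csf2rb, the shared beta chain, followed the same order as Csf2ra. TEC replicates 1 and 2 read 11.57 and 10.95, and CSC replicates 1 and 2 read 8.79 and 8.22. CAF replicates 1, 2 and 3 read 6.59, 6.19 and 6.92, within reach of COF replicates 1, 2 and 3 at 6.77, 6.14 and 6.51. TEC and CSC did not overlap, and CAF and COF did. CSC fell below TEC by -2.75 ± 0.31 (SE, limma, adjusted p = 1.29e-04), and CAF fell below CSC by -1.94 ± 0.29 (adjusted p = 2.87e-04). CAF minus COF was 0.10 ± 0.26 (adjusted p = 0.829, 95% confidence interval -0.48 to 0.67). Csf2rb2, its neighbour in the genome and the beta chain particular to interleukin 3 in the mouse, is a close copy, and hybridisation between the 2 genes was not tested. The probe set of Csf2rb2 averaged 10.61 in TEC, 8.66 in CSC, 7.65 in COF and 7.09 in CAF. It was lower in CSC than in TEC by -1.95 ± 0.37 (adjusted p = 0.00237). The probe set 1450200_s_at is annotated to both genes and was read in the limma fit over all probe sets. There CAF minus CSC was -0.11 ± 0.14 and COF minus CSC 0.06 ± 0.14, and neither passed (adjusted p = 0.502 and 0.724). CSC minus TEC was -1.41 ± 0.15 in it (adjusted p = 1.00e-04). The difference of fibroblasts from CSC thus depended on the probe set.

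Csf3r, the receptor of Csf3 and a gene of the neutrophil lineage, had the widest range of the 7 genes. TEC replicates 1 and 2 read 12.45 and 11.88, above at least 96.5% of the probe sets of their arrays. CSC replicates 1 and 2 read 8.79 and 7.23. CAF replicates 1, 2 and 3 read 5.35, 5.12 and 5.23, and COF replicates 1, 2 and 3 read 5.32, 5.20 and 5.19. The fibroblast values overlapped and lay above only 23.5% to 26.4% of the probe sets, near the lower quartile of the arrays. CSC fell below TEC by -4.16 ± 0.41 (SE, limma, adjusted p = 5.99e-05). CAF and COF fell below CSC by -2.78 ± 0.37 and -2.77 ± 0.37 (adjusted p = 1.59e-04 and 1.41e-04). They lay below TEC by -6.93 ± 0.37 each (adjusted p = 7.68e-07 and 5.58e-07). No fold is given for Csf3r against fibroblasts, because their values are not shown to lie above background and set only a bound. CAF minus COF was -0.01 ± 0.33 (adjusted p = 0.993, 95% confidence interval -0.76 to 0.74). Thus Csf3 was 15.9-fold higher in CAF than in COF, while its receptor read near the lower quartile in both. Neutrophil markers did differ between these 2 populations. Of 11 measured, 6 were higher in CAF, 0 were lower and 5 did not pass, where 18.1% of all genes were higher in CAF. Their median difference was 0.89 against 0.02 for all genes. The part of such transcripts in the Csf3 difference was not tested.

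Neutrophil markers moved with Csf3r between CSC and TEC. Of 11 measured, 10 were lower in CSC, none was higher and 1 did not pass, with a median difference of -4.19 against 0.00 for all genes. Camp and Ngp, granule proteins, differed by -5.09 ± 0.27 and -4.19 ± 0.22, and Elane and Mmp8, granule proteases, by -2.90 ± 0.20 and -5.65 ± 0.43 (limma, adjusted p of at most 1.84e-05). Cxcr2, a neutrophil chemokine receptor, read 11.23 and 10.44 on TEC replicates 1 and 2, and 6.83 and 5.28 on CSC replicates 1 and 2. In TEC the list medians were 12.93 and 13.53, in CSC they were 7.77 and 9.10, with CAF arrays at 6.72 to 7.21 and COF arrays at 5.21 to 5.65. CSC replicate 1 was the higher of the CSC arrays in Csf3r, Cxcr2 and the list median. The mononuclear phagocyte list did not divide in that way: CSC exceeded TEC in 7 of its 17 genes, TEC exceeded CSC in 6, and 4 did not pass. Ms4a7 and C1qc were higher in CSC, by 1.52 and 1.46, whereas Spi1 and Itgam were lower, by differences of -2.24 and -2.31. Without CSC replicate 2, TEC exceeded CSC in 3 genes of this list. All 12 pan-leukocyte markers were lower in CSC than in TEC, with a median of -2.41, among them Ptprc at -2.25 ± 0.60 (adjusted p = 0.0134). Without CSC replicate 2 this was 7 of 12, and Ptprc did not pass without it or without TEC replicate 1 (adjusted p = 0.0920 and 0.0539). The part of these transcripts in the receptor differences was not tested.

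**Figure D4:**
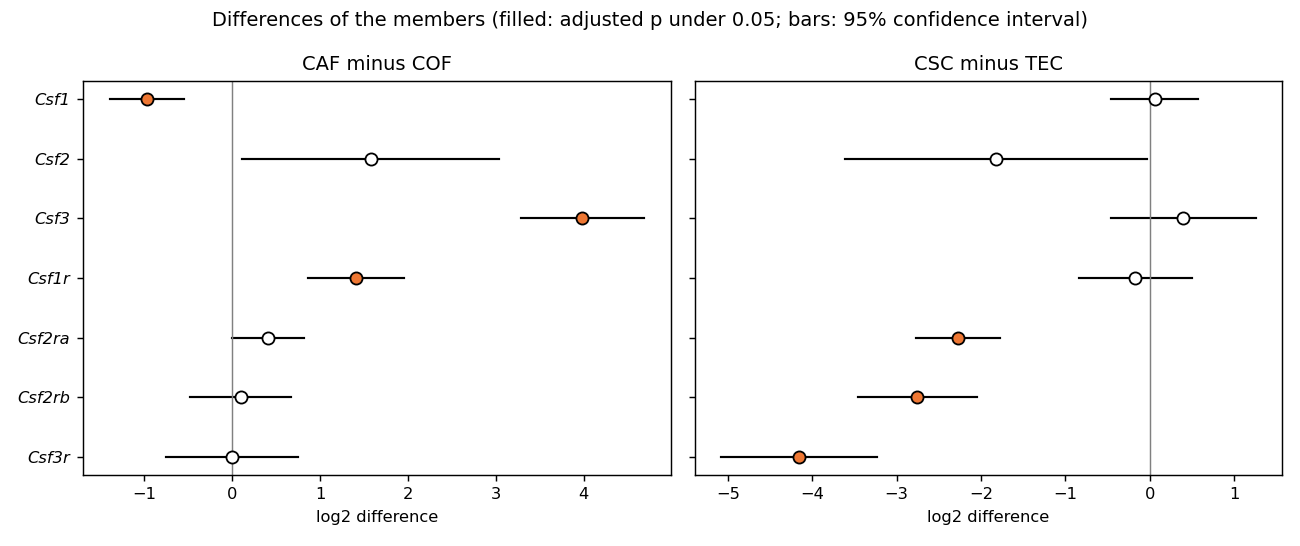
Log2 differences of the 7 genes (horizontal axis) between CAF and COF (left) and between CSC and TEC (right). Bars are 95% confidence intervals, and filled points passed at an adjusted p under 0.05 in limma over all genes. Csf1, Csf3 and Csf1r pass on the left, and Csf2ra, Csf2rb and Csf3r pass on the right.

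Between CAF and COF 3 of the 7 genes passed, 2 of them higher in CAF and 1 lower (limma, adjusted p under 0.05), against 34.8% of all 12394 genes. Of all genes, 18.1% were higher in CAF and 16.7% lower. Between CSC and TEC 3 of the 7 passed, all lower in CSC, against 46.7% of all genes in either direction, with 26.6% higher in CSC and 20.1% lower. All 7 differed between CAF and CSC and between CAF and TEC, the ligands higher in CAF and the receptors lower, where 66.5% and 67.5% of all genes differed. Of all genes, 33.4% were higher in CAF and 33.1% in CSC in the first, and 38.6% were higher in CAF and 28.9% in TEC in the second. Between COF and CSC all 7 differed (69.5% of all genes, 35.8% higher in COF and 33.7% in CSC), 2 higher in COF, Csf1 and Csf2, and 5 lower. Between COF and TEC 6 of 7 differed (68.2% of all genes, 38.5% higher in COF and 29.8% in TEC), with Csf1 higher in COF, the other 5 lower and Csf2 not passing. These shares are large, so a pass by itself does not set the 7 genes apart, and the members are better read by their sizes. The median absolute difference of all genes was 0.55 between CAF and CSC and 0.56 between CAF and TEC. Csf1r differed by -4.13 and -4.30 in these comparisons, whereas Csf1, at 0.66 and 0.72, lay close to that median. The median absolute difference was 0.24 between CAF and COF, where Csf3 differed by 3.99, but Csf2rb by 0.10 and Csf3r by -0.01.

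Other ligands and receptors of the same branches were read from a list of 10 genes, of which 9 were measured. Il34, the second ligand of Csf1r, averaged 7.61 in COF, 7.13 in CAF, 5.04 in TEC and 4.75 in CSC. COF exceeded CSC by 2.86 and CAF exceeded CSC by 2.38, and CAF minus COF was -0.49 ± 0.18 and did not pass (limma, adjusted p = 0.0670). Both known ligands of Csf1r thus had their highest mean in COF. Between CAF and COF 1 of the 9 passed, against 34.8% of all genes. It was Il5, a growth factor of eosinophils, at 0.23 ± 0.08 (adjusted p = 0.0428). Il5 lay below the lower quartile of every array, at no more than 4.57, and did not pass without COF replicate 1, COF replicate 3 or any 1 of the CAF arrays (adjusted p from 0.0658 to 0.163). Of these 9, CSC exceeded TEC in 1 and TEC exceeded CSC in 3, and 5 did not pass, where 26.6% of all genes were higher in CSC and 20.1% in TEC. Flt3, a receptor of dendritic cells and progenitors, was lower in CSC by -2.66 ± 0.11 (adjusted p = 3.68e-06), and Il3ra, the specific chain of the interleukin 3 receptor, by -0.999 ± 0.21 (adjusted p = 0.00374), or -0.62 without TEC replicate 2. Kitl, the ligand of Kit, read 6.71 and 8.78 on TEC replicates 1 and 2 and 9.49 and 9.20 on CSC replicates 1 and 2, and was higher in CSC by 1.60 ± 0.50 (adjusted p = 0.0273). The Kitl difference was 0.57 without TEC replicate 1 and 2.63 without TEC replicate 2, and it did not pass without CSC replicate 1 (1.45, adjusted p = 0.109) or CSC replicate 2 (1.75, adjusted p = 0.0723). Its receptor Kit averaged 9.72 in CSC and 8.86 in TEC (adjusted p = 0.0937) against 4.84 in CAF and 4.31 in COF, and passed between CSC and TEC without CSC replicate 1 (1.51, adjusted p = 0.00424).

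Among 22 measured signal transducers and feedback genes of these receptors, 2 rose in CAF relative to COF, 8 fell and 12 did not pass. Their median was -0.14 against 0.02 for all genes, of which 18.1% were higher in CAF and 16.7% lower. Leaving out any 1 array other than COF replicate 2 gave 1 that rose and 6 that fell. Cish, a feedback inhibitor induced by STAT5, fell by 1.11 ± 0.17 on the log2 scale, and Stat3, which transmits Csf3r signals, fell by 0.76 ± 0.11 (SE, limma, adjusted p = 0.00131 and 8.84e-04). Pik3r1, a regulatory subunit of PI3-kinase, fell by 1.05 ± 0.14 (adjusted p = 6.51e-04). Tyrobp, a myeloid adaptor, rose by 2.20 ± 0.31 (adjusted p = 7.84e-04). Socs3, the feedback inhibitor of Csf3r signals, averaged 12.63 in CAF and 12.80 in COF and did not pass (adjusted p = 0.281). Between CSC and TEC 16 of the 22 were lower in CSC and 2 higher, and 4 did not pass, with a median of -0.87. Of all genes 20.1% were lower in CSC and 26.6% higher. The Src-family kinase Fgr (-3.34 ± 0.19), the kinase Jak2 (-2.04 ± 0.15), which is bound by Csf2rb, and the phosphatases Ptpn6 (-1.71 ± 0.17) and Inpp5d (-2.44 ± 0.25) were lower in CSC (adjusted p of at most 7.44e-05).

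Genes of the inflammatory routes known to induce Csf2 and Csf3 in stromal cells did not move one way in CAF. The list holds inhibitors as well as inducers, so its counts are not of inducers alone. Il1rn, the interleukin 1 receptor antagonist, was among those that rose, by 0.91 (limma, adjusted p = 0.0125). It did not pass without COF replicate 3 (adjusted p = 0.0514). Of the 22 measured genes of this list, 4 rose, 6 fell and 12 did not pass between CAF and COF, and 2 rose and 5 fell without COF replicate 3. Their median was -0.10 against 0.02 for all genes, of which 18.1% were higher in CAF and 16.7% lower. Il33, a cytokine of the interleukin 1 family, rose by 2.85 ± 0.47, and Il1rap, the shared chain of its receptor, by 0.94 ± 0.18 (limma, adjusted p = 0.00182 and 0.00328). Myd88, the adaptor of interleukin 1 and Toll-like receptors, fell by 1.14 ± 0.16 on the log2 scale, and Il17ra, the interleukin 17 receptor chain, fell by 1.08 ± 0.19 (adjusted p = 7.95e-04 and 0.00255). Il1b, a cytokine of activated myeloid cells, averaged 5.76 in CAF and 5.52 in COF and did not pass (adjusted p = 0.463), but averaged 14.22 in TEC and 11.78 in CSC. Between CSC and TEC 20 of the 22 were lower in CSC, 1 was higher and 1 did not pass, with a median of -1.44. Of all genes 20.1% were lower in CSC and 26.6% higher. Fewer of the 22 passed as lower when CSC replicate 1, CSC replicate 2 or TEC replicate 1 was left out, which leaves 1 array in that group. Il17ra, Il1rap, Il1b and Relb, a subunit of NF-kappaB, were lower by differences of -2.52, -2.27, -2.45 and -1.87.

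The genes with the most similar pattern over the 10 arrays were taken by Pearson correlation, 3 for each member. These correlations mostly reflect the differences between the 4 populations, which the arrays share, and are a description. Csf3r was most like Cyp4f18 (r = 0.999), Ms4a3 (r = 0.999) and Klra2 (r = 0.998). Csf2rb was most like the TNF receptor Tnfrsf1b (r = 0.997), the transcription factor Irf5 (r = 0.997) and Ifitm6 (r = 0.995). Csf2ra was most like Abr, Tmem189 and Cd300lf (r = 0.997, 0.997 and 0.996). Csf1r was most like Rnmt, Ctsc and Polr3c (r = 0.997, 0.997 and 0.996), of which Ctsc encodes a lysosomal protease. For the ligands the values were lower. Csf1 was most like Zfp954, Plxdc1 and Bzw1 (r = 0.988, 0.986 and 0.984). Csf2 was most like the extracellular superoxide dismutase Sod3 (r = 0.973), the enkephalin precursor Penk (r = 0.972) and the protease inhibitor Serpina3n (r = 0.967). Csf3 was most like Tmem176a (r = 0.987), Anxa8 (r = 0.987) and Tmem176b (r = 0.976). Among the members themselves, Csf2rb correlated with Csf3r at 0.992 and with Csf2ra at 0.991 (Pearson r), whereas Csf1r correlated with Csf3r at 0.854.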

How the data were processed

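Gene expression was measured on 10 arrays of sorted mouse mammary cells. The authors deposited log2 values for 22690 probe sets, and the submitters' processing notes name RMA. That method corrects background, equalises the distributions of arrays and summarises probes. Its version, and whether all arrays were normalized together, are not given in the sources used here. Medians of the arrays lay between 6.89 and 7.02, and values were used as deposited. By the platform's annotation 20393 probe sets had a single symbol (1 gene), 691 had several and 1606 had none. Only the first kind was used in the fit over genes, with the highest-mean probe set per gene. RefSeq held all 7 members by gene ID.

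Differences were tested with limma 3.58.1 in R 4.3.3 (lmFit, eBayes), with group as the only term, over all 10 arrays and 6 contrasts. Tests were two-sided, with Benjamini-Hochberg adjustment over 12394 genes per contrast and a threshold of 0.05. Errors of differences are moderated standard errors. Precision is limited by how few arrays there are. The pipeline was tested on simulated data. The members, the 12 further gene lists (150 of 162 genes measured) and the tests were chosen with earlier results of these data known. Named from these lists were up to 4 genes with the smallest adjusted p per contrast, and, whatever their values, Il34, Csf2rb2, Kit, Flt3, Il1b, Socs3, Ptprc, Adgre1, Lyz2, Cxcr2 and Cd68. The levels of Spi1 are also given beside the promoters, chosen after its values were seen. Il1rn is named as an inhibitor within its list, also after its values were seen. Alternatives were a fit on the contrast's groups alone, replicate number as a block, a trended robust prior, no dimmest 30% of genes, other probe sets, other normalizations, an adjusted p under 0.01 and each array left out. Values of list genes with an array left out were added after seeing the data. Same-numbered arrays of CAF and COF, which came from mice of different genotype, had correlations of their deviations between -0.08 and 0.13. On replicates 1 and 2 they were -0.02 and 0.09 for CAF and TEC, and -0.04 and 0.09 for CAF and CSC. For CSC and TEC the correlation was -0.06. The numbers were not taken to pair the samples, and these values do not settle whether the tumour populations shared animals.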

Additional observations from a re-analysis of the deposited data

Results flagged for a closer look

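A probe set annotated to both Csf2rb2 and Csf2rb was left out of the fit over genes because it names 2 genes. Its mean log2 value in TEC was 8.07, with both TEC arrays above every COF array, where the mean was 6.72. CAF and CSC averaged 6.55 and 6.66, and neither CAF nor COF passed against CSC in this probe set. The other groups had 2 or 3 arrays each, too few to look for a single outlying array.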

How the results depend on the processing

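The 7 genes gave 42 differences over the 6 comparisons, and 581 recalculations of them under the alternatives. Of these, 554 kept their direction and call, 11 no longer passed, 6 newly passed and 10 changed sign, of which 0 passed either way. Leaving out 1 array gave -0.24 to 0.36 for Csf1 and -0.28 to 1.08 for Csf3 in CSC minus TEC, -0.87 to 2.16 for Csf2 in COF minus TEC, and -0.079 to 0.28 for Csf2rb and -0.066 to 0.051 for Csf3r in CAF minus COF. Csf1 for CSC minus TEC was -0.026 with arrays centred on their medians, and Csf3r for CAF minus COF was 0.0013 with the closest pairs averaged. Without CSC replicate 2, CSC replicate 1, CAF replicate 1, CAF replicate 3 or TEC replicate 1, some differences of Csf1, Csf2 and Csf3 no longer passed, and the values stand in the text. With the closest array pairs averaged, chosen after seeing the data, Csf1 no longer passed between CAF and COF (adjusted p = 0.0571) or between CAF and CSC (0.0613), nor Csf2 between CAF and TEC (0.0522). That setting has fewer arrays.

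Members passing between CAF and COF were 3, and 5 in a fit on those 2 groups alone, with Csf2 and Csf2ra added. Leaving out 1 array gave 3 to 3 members between CAF and COF, 3 to 4 between CSC and TEC, 5 to 7 between CAF and CSC and between CAF and TEC, and 6 to 7 between COF and CSC and between COF and TEC. Of all genes, 4309 passed between CAF and COF, 2638 at an adjusted p under 0.01 and 1805 with the closest pairs averaged. Between CSC and TEC 5786 passed, and 3013 on those 4 arrays alone. Leaving out 1 array gave 2980 to 4316 genes between CAF and COF, 4417 to 6039 between CSC and TEC, 7059 to 7675 between CAF and CSC, 7432 to 7961 between CAF and TEC, 7588 to 8392 between COF and CSC, and 7747 to 8239 between COF and TEC. With the replicate number as a block, Csf2ra passed between CAF and COF (0.40, adjusted p = 0.0483), and no other call of the 7 genes changed under this block, with 3947 of all genes passing between CAF and COF. The block gave 5365 genes for CSC against TEC. The cause of the other changes was not tested. Signals near the lower quartile, as of Csf3r in fibroblasts, limit the size of differences.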
